A study of Mus musculus with 140 samples.

Results

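The knockdown courses of the 3 core regulators Nanog, Oct4 (the product of Pou5f1) and Sox2, called the core group here, were set against the courses of Esrrb, Tbx3 and Tcl1, called the second group, on days 4 to 7. Members were chosen by their labels alone, as the samples of those 6 of the 9 courses on those 4 days. They were 24 of the 70 RNA samples and 48 of the 140 arrays, 12 samples in each group. The 6 courses and the empty vector course used CCE cells, a mouse embryonic stem cell line (male, strain 129/Sv), kept with LIF, the cytokine that holds these cells undifferentiated, at 1000 units/ml. Cells were transduced with a vector expressing a short hairpin RNA (shRNA) against 1 gene, or with the empty H1P vector as the reference, and transduced cells were sorted daily by their GFP. Day 0 was 48 hours after transduction, so cells had carried the vector for that time before the first array. Each course was 1 transduction followed over days, and the sources used here describe no second hairpin or repeat transduction, so the course is the unit, n = 3 per group, and p-values measure the spread between courses of different target genes.

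Oct4, Sox2 and Nanog are transcription factors that hold embryonic stem cells in the pluripotent state, and Oct4 is known for keeping the trophectoderm programme, that of the outer layer of the blastocyst and the future placenta, silent. Esrrb, a nuclear receptor, and Tbx3, a T-box factor, belong to the wider circuit that supports self-renewal under LIF, and Tcl1 is a co-activator of the Akt kinase. The comparison asks how the response to loss of the triad differed from that to loss of the other 3 genes.

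Of 14749 genes 349 were higher in the core group (2.37% of all genes tested) and 317 lower (2.15%) at an adjusted p under 0.05 (limma on 6 course means). In all 666 the 3 courses of one group lay on one side of the 3 of the other. Over all genes 13.5% were separated in this way with the core group higher and 13.2% with it lower. With 3 courses a group the threshold is hard to pass without such separation, so it is not separate evidence. Of the 666, 253 differed by at least 2-fold, 169 higher and 84 lower. The threshold rests on few courses. Without the Nanog, Oct4 or Sox2 course 416, 590 and 286 genes passed, without the Esrrb or Tcl1 course 252 and 136, and without the Tbx3 course 69. All 666 kept their direction in each of these 6 refits, which is fixed in advance where the courses do not overlap. In every one of the 6 refits 51 passed. Where a refit is given below for a single gene, it is the one with the highest adjusted p. Exceptions are Psmb8 and Cldn6, where each refit that missed the threshold is given, and Tbx3, where the lowest is given too. Of the 666, 117 passed in none of the 6 refits, among them Msi1, Oas1a, Rara, Slc3a2, Egln3 and Spry1, which are named below. Array medians on these days overlapped between the groups, at 249.2 to 343.1 against 256.2 to 305.8 on A arrays and 77.6 to 118.6 against 64.5 to 101.5 on B arrays, and the median difference over all genes was 0.02 on the log2 scale. Signals are MAS5 intensities with no unit, and log2 values below are of signal plus a small constant, which shrinks the folds of dim genes.

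Of the array's own 3′ and 5′ control probe sets, whose ratio rises as RNA shortens, those of Gapdh were alike in the groups (log2 ratio -0.51 to -0.17 in the core and -0.35 to -0.18 in the second group on A arrays). Those of the transferrin receptor differed, at 1.16 to 1.86 with a median of 1.51 in the core group and 0.26 to 1.63 with a median of 0.82 in the second. On B arrays its medians were 1.66 and 0.94. The transferrin receptor gene, Tfrc, is itself among the 666 calls and passed in 3 of the 6 refits. Whether its level moved this ratio was not tested. For Actb the medians in the core and second group were 0.11 and 0.02 on A arrays and 0.19 and 0.05 on B arrays, and for Pcx they were 1.28 and 1.09 on A arrays and 0.86 and 1.03 on B arrays. The part of this in the results below was not tested.

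Sct, which encodes the peptide hormone secretin, had the largest difference of all called genes. Its signal over the 12 core samples was 2449 at the lowest, 5119 at the median and 16147 at the highest, and over the 12 second-group samples 68.7, 289.6 and 1488. No sample of one group overlapped the other. Course means were 9856 in the Nanog, 4704 in the Oct4 and 5633 in the Sox2 course, against 789 in the Esrrb, 233 in the Tbx3, 207.4 in the Tcl1 and 142.9 in the empty vector course. The group difference was 4.10 ± 0.35 on the log2 scale (SE), a 17.1-fold higher level (adjusted p = 0.00302), and the gene passed in all 6 refits that left out a course. The Esrrb course stood above the other second-group courses on the last 3 days, with 521.6, 1074 and 1488 on days 5, 6 and 7.

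Rhox6, an X-linked homeobox gene of placenta and germ line, was 8.87-fold higher in the core group (log2 3.15 ± 0.33, adjusted p = 0.0075). The core samples ran from 5979 through a median of 16004 to 20156, and the second-group samples from 425.2 through 1352 to 9850. The samples overlapped only in that the Esrrb course reached 9850 on day 7, above the 5979 of the Nanog course on day 4. The difference of the group means widened from 1.21 on day 0 through 2.80 on day 2 to 4.12 on day 4, and was 2.11 on day 7, as the Esrrb, Tbx3 and Tcl1 courses reached 9850, 2770 and 1758 while the empty vector was at 559.6. The Oct4 course was already at 2094 on day 0 and the Nanog course at 760.5, against 532.8 in the empty vector.

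Psmb8 and Cldn6 were lower in the core group, and for both the second group lay farther from the empty vector than the core group did. Psmb8 encodes a catalytic subunit of the immunoproteasome, the form of the proteasome that trims peptides for antigen presentation. Its core samples had signals of 14.5, 49.0 and 244 (lowest, median, highest) and its second-group samples 162.9, 302.8 and 640.3. The empty vector course averaged 40.9, the Oct4 course 33.2, the Sox2 course 102.3 and the Nanog course 104.5, whereas the Tcl1, Esrrb and Tbx3 courses averaged 236.2, 340.8 and 545.7. The difference was -1.67 ± 0.29 (3.18-fold, adjusted p = 0.0237), and -2.61 with a constant of 1 and -0.84 with the table median, since the core signals were near the constant used. Without the Esrrb course it was -1.70 (adjusted p = 0.0622) and without the Tbx3 course -1.41 (adjusted p = 0.0676). The groups were alike on days 0 and 1 (0.12 and -0.31), and the gap opened on day 3 at -1.17. The Nanog and Sox2 courses were at 193.7 and 202.1 on day 3 and at 42.2 and 97.5 on day 7. In the course of the shRNA that the labels call Mm343880, which is in neither group, the signal averaged 351.

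Cldn6, a tight junction claudin of early epithelia, had core signals of 1142, 1723 and 3194 and second-group signals of 2630, 3731 and 4236. The only core samples above 2630 were those of the Nanog and Oct4 courses on day 4, at 3194 and 2883. In all 6 courses the signal climbed from day 0 to day 3, and on days 5 to 7 the core samples lay at 1142 to 2354 and the second-group samples at 2630 to 4236. The difference was -0.27 on day 4 and -1.10, -1.27 and -1.21 on days 5, 6 and 7, and -0.96 ± 0.17 over the 4 days (1.95-fold, adjusted p = 0.024). Without the Esrrb, Tbx3 or Tcl1 course it was -0.95, -0.91 and -1.04 with adjusted p = 0.0687, 0.0897 and 0.0664. The empty vector averaged 1195, and the core group lay 0.58 and the second group 1.55 above it on the log2 scale. For each of the 4 genes the exact two-sided permutation p over the 6 courses was 0.1, the smallest that 3 against 3 allow.

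**Figure D1:**
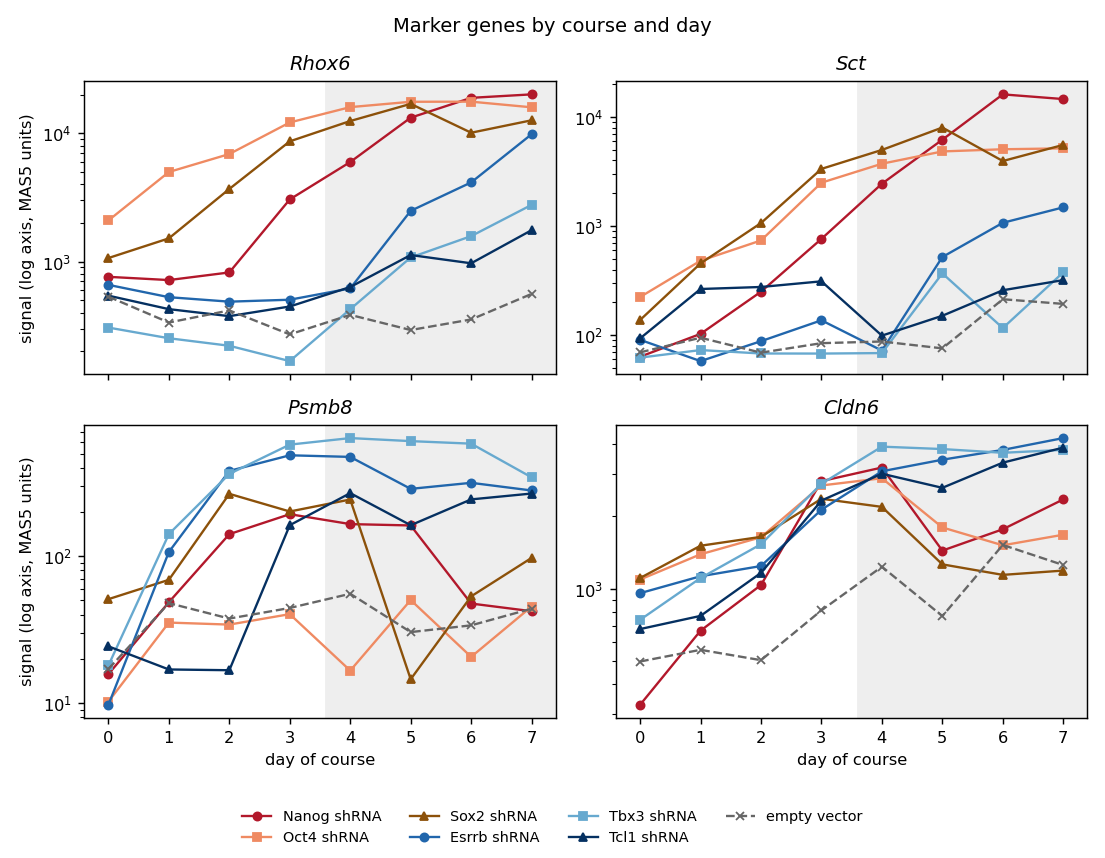
Signal (log axis) of Rhox6, Sct, Psmb8 and Cldn6 on each day from 0 to 7 in the 3 core courses (red and brown), the 3 second-group courses (blue) and the empty vector (dashed grey), 1 sample per point, with days 4 to 7 shaded. Rhox6 and Sct separate the groups before day 4, with the Esrrb course climbing to 9850 for Rhox6 on day 7, whereas Cldn6 separates them from day 5.

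The 120 bases before the annotated starts of 4 genes with a difference between the groups are shown for their promoter letters, Sct and Plet1 (higher in the core group, the latter described below) and Psmb8 and Cldn6 (lower). They are RefSeq sequences of build GRCm38.p6, from chr7:141279134-141279253 (minus strand), chr9:50494405-50494524, chr17:34198075-34198194 and chr17:23679245-23679364 (plus strand), written 5′ to 3′ along the gene, with capitals for matches to the motifs searched.
Sct: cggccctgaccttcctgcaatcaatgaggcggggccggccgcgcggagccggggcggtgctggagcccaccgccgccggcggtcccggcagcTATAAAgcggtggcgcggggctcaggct
Plet1: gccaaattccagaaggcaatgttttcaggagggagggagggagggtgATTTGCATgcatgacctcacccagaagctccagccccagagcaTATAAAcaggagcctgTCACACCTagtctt
Psmb8: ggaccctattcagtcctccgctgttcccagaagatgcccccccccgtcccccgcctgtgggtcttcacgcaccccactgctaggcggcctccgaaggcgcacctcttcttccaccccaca
Cldn6: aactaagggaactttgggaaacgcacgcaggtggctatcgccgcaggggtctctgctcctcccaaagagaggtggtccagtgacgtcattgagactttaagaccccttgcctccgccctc
The Sct stretch holds TATAAA, the letters of the TATA box, 28 bases before the start. That of Plet1 holds TATAAA at 30 bases, the octamer read by Pou factors such as Oct4 (ATGCAAAT, here on the other strand) from 73 bases, and a T-box element (AGGTGTGA, other strand) from 14 bases. None of these matches overlap. The Psmb8 and Cldn6 stretches hold none of the motifs searched on both strands, which also included those of Sox factors, estrogen-related receptors, GATA factors and TEAD factors. The same stretch of Sbsn, a gene higher in the core group and described below, was searched too and is not printed. It also holds none, so the matches do not divide higher from lower genes.

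In windows from 250 bases before to 50 after the start, the octamer stood in 1.97% of 27025 genes, in 1.51% of the 11841 tested genes with a window, and in 1.05% of 285 higher and 1.15% of 261 lower calls. The T-box element stood in 1.15% of tested genes, 1.75% of higher and 0.766% of lower calls. The GATA motif (AGATAA) stood in 8.39% of tested genes, 10.5% of higher and 4.98% of lower calls. For the Sox motif (ATTGTT) these shares were 7.84%, 7.37% and 8.05%. The element of estrogen-related receptors such as Esrrb (TCAAGGTCA) stood in 0.422% of tested genes and in 2 higher and 0 lower calls. For the TEAD motif (GGAATG) the shares were 14.8%, 13.3% and 11.9%, and for the TATA box 9.8%, 9.12% and 9.96%. These are shares of letters, not of bound sites.

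Behind Sct and Rhox6, the genes with the largest higher values in the core group included several genes known from the placenta and the trophoblast, some of them on the X chromosome. Rhox9, next to Rhox6 in the same homeobox cluster, averaged 8542, 10137 and 6839 in the Nanog, Oct4 and Sox2 courses against 1665, 967.3 and 644.8 in the Esrrb, Tbx3 and Tcl1 courses (8.22-fold, adjusted p = 0.00415). Nrk, an X-linked kinase gene of the placenta, averaged 4291, 1579 and 2421 against 269.6, 313.2 and 186.4 (8.00-fold, adjusted p = 0.00396), with no overlap of samples. Plac1, a placental gene on X, was 7.26-fold higher (adjusted p = 0.0139). It had 7492 in the Nanog and 2007 in the Oct4 course, and 911.5 in the Esrrb course. Without the Tbx3 course its adjusted p was 0.0601.

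Sbsn, which encodes the epithelial protein suprabasin, had a difference of 2.86 ± 0.22 and, with Plet1, the lowest adjusted p of the comparison (0.000714 for both). Sbsn samples ran from 2552 to 8804 in the core group and from 348.8 to 1576 in the second. Plet1, a surface protein gene of the trophoblast, ran from 583.1 to 2982 against 34.2 to 289.8 (5.49-fold), and its 3 second-group means of 169.6, 162.5 and 169.9 lay close together, with the empty vector at 114.5. Magi3, a membrane scaffold gene, was 6.81-fold higher (338.1 to 490.3 against 24.1 to 73.8 over course means) by the probe set used. Its other probe sets did not pass, at 1.24-fold with overlapping courses (adjusted p = 0.302) and 1.41-fold (adjusted p = 0.0961). A second probe set of Plet1 gave 6.17-fold (adjusted p = 0.0011) and another -0.07 on the log2 scale (adjusted p = 0.838). Ldoc1, a retrotransposon-derived gene on X that acts in the placenta, was 6.50-fold higher, and Tinagl1, a matrix protein gene, 4.95-fold (adjusted p = 0.0753 without the Tcl1 course). The further genes among the 12 largest rises were 1600025M17Rik (5.30-fold) and Nxf7 (4.90-fold). Of these 12 genes, 12 passed without the Nanog, Oct4, Sox2 or Esrrb course and 10 without the Tbx3 or the Tcl1 course.

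The 12 largest falls included genes of transport, adhesion, signalling and the nervous system. Slc7a3, a transporter of cationic amino acids, averaged 1632, 1027 and 539.6 in the Nanog, Oct4 and Sox2 courses against 3199, 3429 and 5958 in the Esrrb, Tbx3 and Tcl1 courses and 4991 with the empty vector (-2.05 ± 0.39, adjusted p = 0.0296, and 0.0961 without the Tcl1 course). Mcam, a cell adhesion gene, averaged 69.1, 95.6 and 66.7 against 442.8, 486.5 and 479.5, with the empty vector at 644.9 (3.91-fold lower, adjusted p = 0.00172). Trh, which encodes thyrotropin-releasing hormone, averaged 3089, 1592 and 924.5 against 5428, 6476 and 5893 (3.70-fold lower, adjusted p = 0.0389, and 0.121 without the Tbx3 course). In Slc7a3, Mcam and Trh no core sample reached a second-group sample, and the second group lay near the empty vector.

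Kif7, a kinesin of hedgehog signalling, was 4.39-fold lower (25.4 to 83.9 against 236.8 to 336.6 over course means) and Atrip, the partner of the checkpoint kinase ATR, 3.66-fold lower (adjusted p = 0.00172). For Sp5, a target of Wnt signalling, the second group was higher than the empty vector. It averaged 503.1 in the Esrrb, 328.7 in the Tbx3, 88.0 in the Tcl1 and 45.7 in the empty vector course, against 13.9 to 52.1 in the core group (adjusted p = 0.0429, and 0.136 without the Tbx3 course). Crmp1, Slc27a2, Prmt8, Tspan5 and Platr10 were 3.46-, 3.41-, 3.20-, 3.18- and 3.01-fold lower. Kif7, Atrip and Mcam passed in all 6 refits. Of the 12 falls 11, 10 and 11 passed without the Nanog, Oct4 or Sox2 course, and 7, 3 and 6 without the Esrrb, Tbx3 or Tcl1 course.

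**Figure D2:**
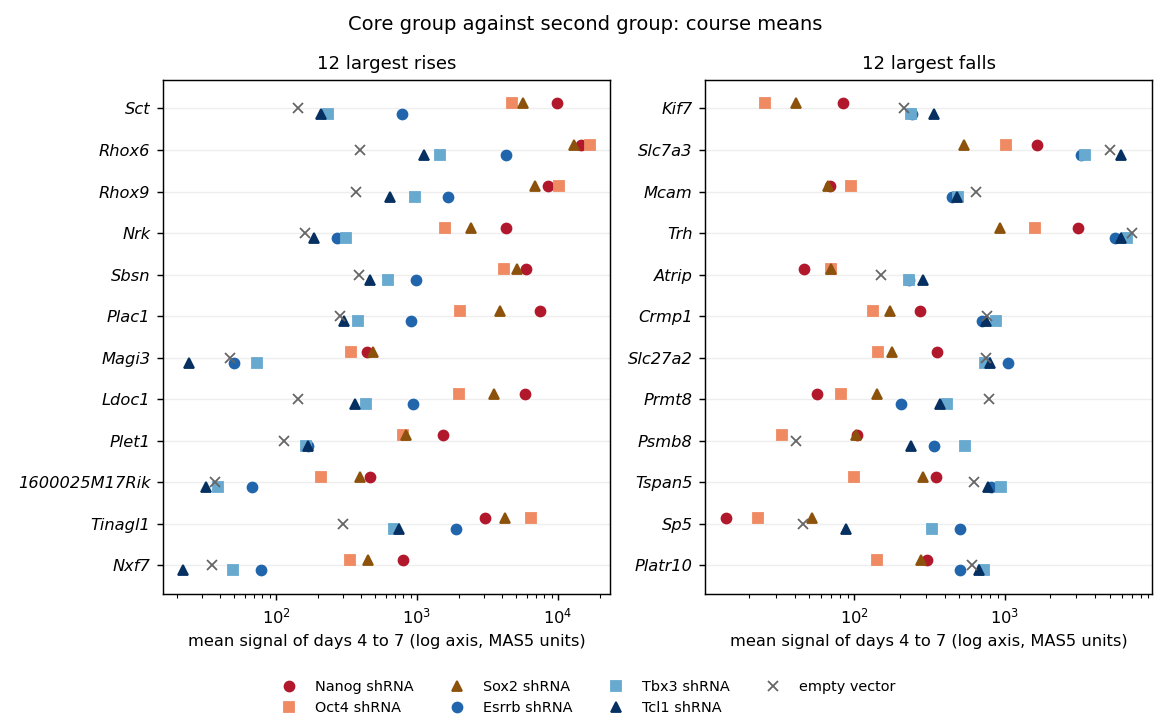
Mean signal of days 4 to 7 (log axis) in each course for the 12 genes with the largest rises and the 12 with the largest falls in the core group among called genes, 1 point per course, core in red and brown, second in blue, empty vector as a cross. In the left panel the Esrrb course is the blue point nearest to the core group for Sct (789), Rhox6 (4275) and Plac1 (911.5), and in the right panel the empty vector lies with the second group for Mcam (644.9) and Trh (7033) but with the core group for Psmb8 (40.9).

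Trophectoderm genes were the list with the largest median difference. Of 26 measured members 12 were higher and 0 lower (the shares over all genes were 2.37% and 2.15%), with a median log2 difference of 1.32 against 0.02 over all genes. All 3 core courses lay above all 3 second courses for 21 of them, against 13.5% of all genes. The list was drawn up with earlier results of these samples known, so its direction is not independent evidence. Besides the Rhox genes, Plac1 and Ldoc1, the called members included Ascl2, a factor of placental progenitors (4.49-fold, adjusted p = 0.024), the growth inhibitor Cdkn1c (4.75-fold, adjusted p = 0.0212) and the epithelial keratins Krt7 and Krt18 (both 2.59-fold, adjusted p = 0.0426 and 0.0375). Krt8 averaged 15791 to 22802 in the core and 5722 to 14196 in the second group (adjusted p = 0.0506).

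Transcription factors that instruct the lineage had smaller differences than the Rhox genes. Tead4 and Gata2 passed, at log2 0.89 and 0.91 (adjusted p = 0.0272 and 0.0375). Cdx2, the homeobox factor that sets up the trophectoderm, had a difference of 0.90 ± 0.70 (adjusted p = 0.515). It averaged 1951 in the Oct4 and 1052 in the Esrrb course, 608.9 and 381.5 in the Nanog and Sox2 courses, 452.5 and 140.3 in the Tcl1 and Tbx3 courses and 103 with the empty vector. Gata3 had 1.27 (adjusted p = 0.055), with 153.2 in the Esrrb course and 31.0 and 37.2 in the Tbx3 and Tcl1 courses. Hand1, a factor of trophoblast giant cells, was at 3893 in the Oct4 course and at 1335 and 1127 in the Nanog and Sox2 courses, with 1166 in the Esrrb course (adjusted p = 0.178).

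Against the empty vector the list's median was 2.19, 2.59 and 1.75 in the Nanog, Oct4 and Sox2 courses and 1.18, 0.54 and 0.62 in the Esrrb, Tbx3 and Tcl1 courses, 6 values that share the same empty vector samples. The Esrrb course was the second-group course nearest to the core group for 21 of the 26 genes (80.8%, against 35.9% of all genes). Counts of called members were 12 without the Oct4 or Esrrb course, 6 without the Nanog or Sox2 course, 3 without the Tbx3 course and 4 without the Tcl1 course, and all 26 differences were above 0 in each. The summed signal of the 6 defining trophectoderm markers (Cdx2, Eomes, Krt7, Krt8, Krt18, Hand1) was 34810 to 77048 in the core samples, 5294 to 61371 in the second-group samples and 3462 to 6250 with the empty vector, and 2 of the 6 passed. In bulk samples fewer cells of a type and less RNA per cell cannot be told apart.

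Of 18 measured genes of oxygen response and glycolysis 9 were lower and 1 higher (2.15% and 2.37% over all genes), with a median of -0.51. For 14 of them all 3 core courses lay below all 3 second courses (13.2% over all genes). Slc16a3, the lactate exporter, averaged 1184, 1707 and 1217 in the Nanog, Oct4 and Sox2 courses and 4038, 3924 and 3067 in the Esrrb, Tbx3 and Tcl1 courses (2.85-fold lower, adjusted p = 0.0134). Bnip3, a mitophagy receptor induced by hypoxia, was 2.09-fold lower (adjusted p = 0.0266) and Ldha, which makes lactate, 1.64-fold (adjusted p = 0.0212). Pfkl, Pdk1, Hk2, Egln3, Pkm and Pgk1 were also lower, by log2 0.37 for Pgk1 to 0.99 for Pfkl. Ndrg1, a stress-induced gene, was the member that was higher (2.21-fold, adjusted p = 0.0144). After quantile normalization 2 were lower and 1 higher (median -0.38), and without the Nanog, Oct4, Sox2, Esrrb, Tbx3 or Tcl1 course 3, 9, 2, 3, 0 and 1 were lower.

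Genes of FGF and ERK signalling, the pathway that moves embryonic stem cells toward lineage entry, had the lowest median of the 22 lists, at -0.75. Of 18 members 4 were lower and 0 higher (2.15% and 2.37% over all genes). Egr1, an immediate early target of ERK, averaged 701.8, 490.6 and 241.4 in the Nanog, Oct4 and Sox2 courses against 1294, 1426 and 1126 in the Esrrb, Tbx3 and Tcl1 courses, with 719.1 in the empty vector (2.58-fold lower, adjusted p = 0.0436, and 0.133 without the Tbx3 course). Fgf17, a ligand, was 2.16-fold lower (adjusted p = 0.0119) and Etv5, an ETS factor downstream of the receptor, 1.77-fold (adjusted p = 0.0165). In both the second group lay nearer to the empty vector, at 573 to 780.5 against 810.3 for Fgf17. Spry1, a feedback inhibitor, was the remaining call (-0.54). Without the Tbx3 or the Tcl1 course 1 member passed, and without the Oct4 course 2. The member that passed without the Tbx3 course was none of the 4 calls.

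Of 22 replication and mitosis genes 5 were lower and 0 higher (2.15% and 2.37% over all genes), with a median of -0.35. For Pcna, the sliding clamp of the replication fork, all 12 core samples (10305 to 17576) lay below all 12 second-group samples (17732 to 19756), at 1.56-fold lower (adjusted p = 0.0179). The helicase subunits Mcm2 and Mcm3 were 1.52-fold and 1.5-fold lower, also without overlap of samples, and Mcm7 and the mitotic kinase Plk1 passed too. After quantile normalization 2 of the 22 passed, and without the Esrrb, Tbx3 or Tcl1 course 0.

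Among 29 pluripotency genes 1 was lower and 0 higher, near the shares over all genes (2.15% and 2.37%), with a median of -0.42. The list holds the 6 targeted genes, and its counts and medians were not taken without them. Prdm14, a repressor that guards the naive state, averaged 343.1, 393.3 and 485.7 against 750.9, 1014 and 681.6, with 1290 in the empty vector (adjusted p = 0.0212, and 0.0742 without the Tbx3 course). The 6 targeted genes are each targeted in their own course by design, and none passed on course means. Nanog had a difference of -1.09 (adjusted p = 0.257), Pou5f1 -0.98 (0.136), Sox2 -1.16 (0.115), Tcl1 -0.37 (0.437) and Esrrb -0.03 (0.961). Tcl1 and Esrrb lay below the empty vector in both groups, at log2 -2.05 and -0.88 in the core and -1.68 and -0.85 in the second group. Tbx3 had 1.59 (adjusted p = 0.113), and its signal was 968.3 to 1601 in the core samples against 103.8 to 1817 in the second group. Of its 6 refits Tbx3 passed in 1, that without the Tcl1 course (adjusted p = 0.025), and the highest adjusted p was 0.257, without the Tbx3 course. With arrays as units, course as a random block and day as a term, 4 of the 6 passed. They were Nanog (adjusted p = 0.0144), Pou5f1 (0.0145), Sox2 (0.00957) and Tbx3 (0.00263). In that fit 13 of the 29 genes of the list were lower, the targets Nanog, Pou5f1 and Sox2 among them, and 1 higher, the target Tbx3. Over all 14749 genes 1174 were lower and 967 higher. The fit with arrays as units draws on the days of a course, which are not replicates, so the fit on course means is the one to read. The median of the list against the empty vector was -0.69, -0.82 and -0.97 in the Nanog, Oct4 and Sox2 courses and -0.76, -0.27 and -0.21 in the Esrrb, Tbx3 and Tcl1 courses. The summed signal of the 5 embryonic stem cell markers (Pou5f1, Nanog, Sox2, Zfp42 and Dppa5a, of which 3 are targets) was 27253 to 71594 in the core, 57246 to 88473 in the second group and 74591 to 89206 in the empty vector.

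Genes of the later epiblast and of neuroectoderm were lower in the core group where they passed. Over all genes 2.15% were lower and 2.37% higher. Of 15 primed epiblast genes 3 were lower and 0 higher (median -0.46): Lef1, a transcription factor of Wnt signalling (2.34-fold, adjusted p = 0.0139), Cldn6, and the zinc finger factor Zic2 (1.69-fold, adjusted p = 0.0384). Of 12 neuroectoderm genes 3 were lower and 0 higher (median -0.55). Stmn2, a microtubule regulator of neurons, averaged 2523, 1511 and 2685 in the core courses against 6050, 5762 and 7190, with no overlap of samples (3.01-fold lower, adjusted p = 0.0189). Gbx2, a homeobox gene that LIF induces through Stat3, was 2.89-fold lower (adjusted p = 0.0142), with samples of 80.3 to 292.3 against 357.1 to 1032. Msi1, an RNA-binding protein of neural progenitors, was 1.49-fold lower (adjusted p = 0.0375). Against the empty vector Stmn2, Gbx2 and Msi1 lay at log2 -0.26, -0.22 and -0.21 in the second group. In the core group they lay at -1.85, -1.75 and -0.78. Lef1, Cldn6 and Zic2 lay at 0.30, 1.55 and 0.60 in the second group and at -0.93, 0.58 and -0.16 in the core group. Without the Tbx3 course none of these epiblast or neuroectoderm genes passed.

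In the immunoproteasome and antigen presentation list Psmb8 was the 1 call among 16 members (median -0.21). The counts of this and the next 2 lists are small beside shares of 2.37% higher and 2.15% lower over all genes. Psmb9, its partner subunit, had -0.65 (adjusted p = 0.0892), Irf1, a factor that induces both, -0.69 (adjusted p = 0.0611), and the class I gene H2-D1 1.27 (adjusted p = 0.092). Of 11 interferon response genes 2 were higher, Ifi35 (2.09-fold, adjusted p = 0.0139) and the antiviral synthetase gene Oas1a (1.63-fold, adjusted p = 0.0478), and 0 lower. Against the empty vector Ifi35 lay at log2 1.99 in the core and 0.93 in the second group. Oas1a lay near it in the core group (0.08) and below it in the second (-0.62). Of 21 extraembryonic endoderm genes 2 were higher, the basement membrane collagens Col4a1 (1.91-fold, adjusted p = 0.0139) and Col4a2 (log2 0.79, adjusted p = 0.0263). Without the Tbx3 course 0 members of either list passed (adjusted p = 0.0601 for Col4a1 and 0.0977 for Col4a2), and without the Tcl1 course 0 interferon response genes. The sum of Gata4, Gata6, Sox17 and Foxa2 was 784.4 to 3156 in the core and 660.4 to 1478 in the second group, and none of the 4 passed.

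Smaller numbers of calls came from the other lists. Over all genes 2.37% were higher and 2.15% lower, so 1 call in a list of this size is no result about the list. Of 12 retinoic acid response genes Tgm2, a transglutaminase, was higher (4.83-fold, adjusted p = 0.0216) and the retinoid-binding protein gene Crabp1 (2.54-fold, adjusted p = 0.0414) and the receptor gene Rara (log2 -0.60) lower. Of 10 secreted peptide genes Sct and Nppb were higher and Trh lower. Mdm2, whose product tags p53 for degradation, was 1.87-fold higher (adjusted p = 0.0172) and the 1 call among 14 p53 genes. It did not pass without the Esrrb, Tbx3 or Tcl1 course (adjusted p up to 0.0678). Of 15 genes of amino acid transport and the Atf4 response, Atf4 was higher (log2 0.64, adjusted p = 0.0242) and Slc7a3 and Slc3a2 lower. Of 11 germ line genes Stra8 was higher (2.31-fold), of 17 Nodal and BMP genes Acvr2b was lower (log2 -0.82), and of 14 LIF and Stat3 genes Gbx2 and Pim1 were lower. Without the Tbx3 course 0 members of the retinoic acid, Atf4, Nodal and LIF lists passed, without the Tcl1 course 0 of the retinoic acid, Atf4, germ line and Nodal lists, and without the Esrrb course 0 of the Atf4 and germ line lists. Of the 6 refits Stra8 passed in those without the Oct4 and the Tbx3 course. No member passed among 11 mesoderm, 18 contractile, 13 fibroblast and 11 DNA methylation genes. The summed signal of 6 fibroblast markers was 856 to 2502 in the core and 1384 to 5130 in the second group, that of 3 neuroectoderm markers 664.2 to 1299 and 852.3 to 1512, and that of 2 mesoderm markers 329.5 to 776.6 and 408.7 to 595. The part of these cell type markers in the other differences was not tested.

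**Figure D3:**
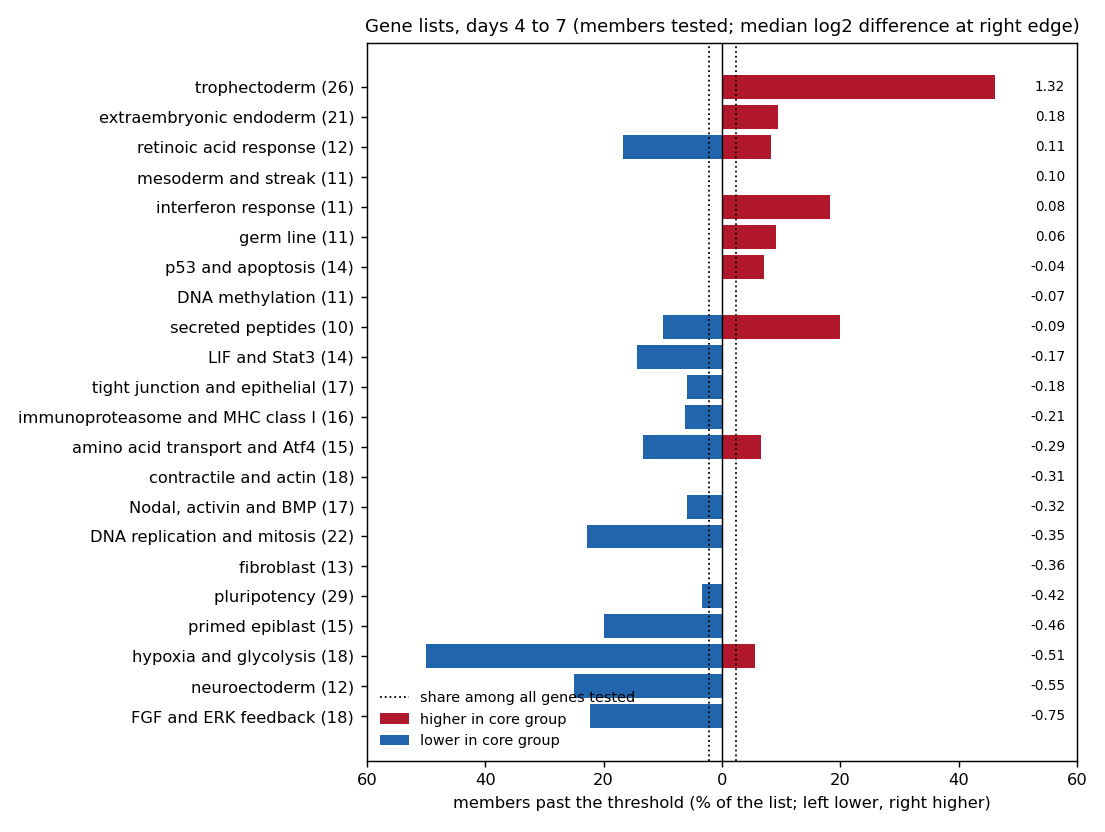
Share of each gene list past the threshold on days 4 to 7, higher in the core group to the right and lower to the left, with the number of members tested in parentheses and the median log2 difference at the right edge; dotted lines mark the shares over all genes (2.37% and 2.15%). Trophectoderm genes (12 of 26 higher) and hypoxia and glycolysis genes (9 of 18 lower) extend farthest.

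The X chromosome held 29 of the 349 genes that were higher in the core group (8.31%) and 14 of the 317 that were lower (4.42%), against 3.24% of all genes by RefSeq's GRCm38.p6 annotation. Besides Rhox6, Rhox9, Rhox5, Nrk, Plac1 and Ldoc1 these were such genes as Gpr50, a melatonin receptor relative (3.90-fold), the homeobox gene Esx1 of the placental labyrinth (log2 1.63), the phosphatase gene Dusp9 (2.81-fold), the chromatin remodeller gene Atrx (2.28-fold) and the corepressor gene Bcor (1.83-fold). Of the 26 trophectoderm genes 6 lie on X, so these counts share genes.

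By whole samples, 48 genes (0.325%) had all 12 core samples above all 12 second-group samples and 82 (0.556%) had them below. Both Sct and Gjb5, a connexin of the trophoblast (4.03-fold higher, adjusted p = 0.00415), are among the 48. By course means 211 genes (1.43%) were at least 2-fold higher in the core group without overlap and 111 (0.753%) lower. These counts carry no test.

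The courses of a group lay closer to each other than to any course of the other group. Between course means of the core group 387 to 419 genes differed by at least 2-fold, between those of the second group 195 to 271, and between a core and a second course 586 to 837. The closest pair across the groups was Sox2 and Esrrb (586), and the farthest Sox2 and Tbx3 (837). From the empty vector the Nanog, Oct4 and Sox2 courses differed in 1044, 761 and 1018 genes and the Esrrb, Tbx3 and Tcl1 courses in 662, 496 and 447. The Oct4 course was the core course nearest to the second group for 54.4% of the higher calls (36.8% of all genes) and for 31.2% of the lower calls, where the Nanog course was nearest for 41.3% (31.9% of all genes). Over the higher calls the median difference from the empty vector was 0.83 in the core and -0.16 in the second group, and over the lower calls -0.65 and 0.14. For 316 of the 349 higher calls all 3 core courses lay above the empty vector. For 286 of the 317 lower calls all 3 lay below it. These sides were not counted over all genes. Genes called for a higher or lower core group lean to that side by selection, and so do the medians above. Core and second group are compared here with the same empty vector course, which has no replicate.

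**Figure D4:**
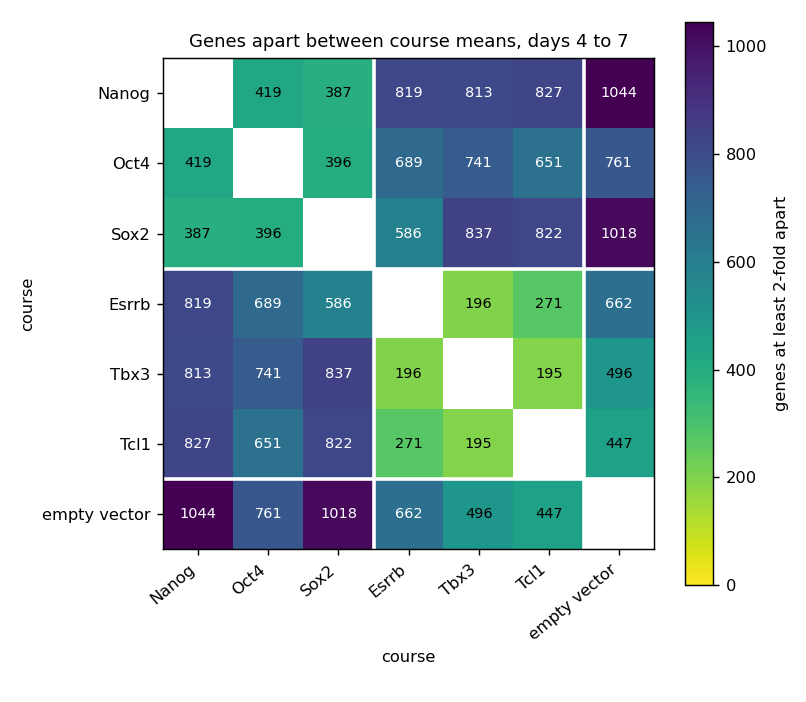
Number of genes at least 2-fold apart between the means of days 4 to 7 of each pair of courses, darker for more genes, with white lines between the core courses, the second-group courses and the empty vector. Pairs within the second group have the lowest counts (195 to 271) and the Nanog course against the empty vector the highest (1044).

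Some differences were present when the courses began. On days 0 and 1, 108 genes were higher in the core group (0.732%) and 28 lower (0.19%) at an adjusted p under 0.05. Atrx had the lowest adjusted p of the higher ones (log2 1.99 ± 0.15, adjusted p = 0.00108), Gpat3, an enzyme of lipid synthesis, the largest difference (3.02), and Gbx2 was lowest of all (-2.35 ± 0.25, adjusted p = 0.0179). None of the 26 trophectoderm genes passed then, although their median was 0.91. On day 0 alone 412 genes passed, 337 higher and 75 lower, and on days 0 and 1 after quantile normalization 64, 50 higher and 14 lower. Array medians of day 0 on B arrays were 100.6, 101.2 and 107.7 in the Nanog, Oct4 and Sox2 courses. In the Esrrb, Tbx3 and Tcl1 courses they were 82.2, 72.5 and 87.3. On A arrays they overlapped, at 294.1, 280.1 and 314.5 against 236.1, 259.4 and 298.2. The part of array brightness in the early calls was not tested.

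The size of the gaps moved with time, differently for different genes. The median of the trophectoderm list grew from 0.69 on day 0 to 2.10 on day 4 and was 0.79 on day 7, as Rhox6 also did. Gbx2 went from -3.02 on day 3 to -0.95 on day 7, and Gjb5 from 3.31 to 1.47. Slc7a3 was already at -2.06 on day 0. Nrk, in contrast, moved from 0.67 on day 0 to 3.49 on day 6, and Sbsn from -0.10 to 3.17 on day 5. Of the 349 higher calls 51 had all 3 core courses above all 3 second courses on each day from day 2 or earlier to day 7, and of the 317 lower calls 102 had them below. The same was not counted over all genes. On day 0 alone, 447 genes (3.03% of all genes tested) were at least 2-fold higher without overlap. There were 176 (1.19%) on day 1 and 604 (4.1%) on day 6. At least 2-fold lower were 79 (0.536%) on day 0 and 244 (1.65%) on day 4.

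**Figure D5:**
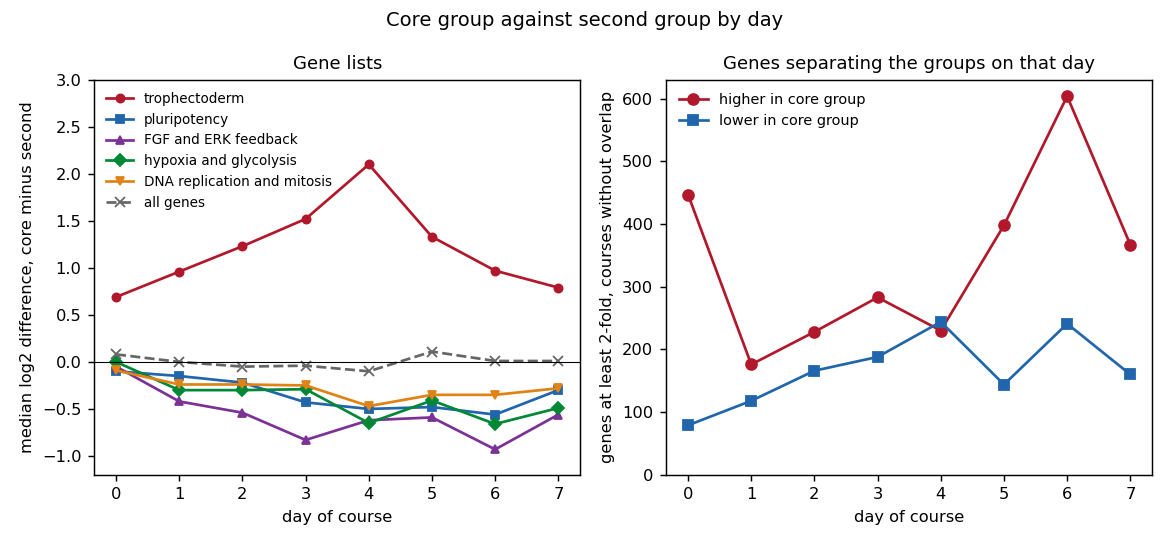
Left, median log2 difference (core minus second) of 5 gene lists and of all genes on each day; right, number of genes at least 2-fold higher or lower in the core group on that day with the 3 courses of each group not overlapping. The trophectoderm median peaks on day 4 at 2.10, and the number of higher genes is greatest on day 6 (604, 4.1% of all genes tested).

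The change from days 0 and 1 to days 4 to 7 differed between the groups for 17 genes that rose more or fell less in the core group (0.115%) and 10 that did the reverse (0.0678%). Sbsn rose by 3.73 in the core and 0.84 in the second group (adjusted p = 0.000169), and Lgals3, which encodes galectin-3, by 3.04 and 0.23 (adjusted p = 0.00891). Nrk rose by 3.38 and 0.70 (adjusted p = 0.0314). Psmb8 rose by 0.38 and 1.96 (adjusted p = 0.0463), and Gbp2, an interferon-induced GTPase gene, by 0.64 and 1.80 (adjusted p = 0.0493). Dusp6, the phosphatase that turns off ERK, had a change of -1.5 in the core group against -0.39 in the second (adjusted p = 0.0493). Without the Tbx3 course 1 gene passed, without the Esrrb course 5, without the Sox2 or Tcl1 course 10 and 13, and without the Oct4 course 17. At an unadjusted p under 0.05 there were 1737 genes in this comparison and 3257 in that of the late days.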

How the data were processed

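The authors computed signals with MAS5, per the submitters' processing notes (version not given in the sources used here), and deposited them as linear intensity, 1 value for each probe set on each array. Of 45265 probe sets 35041 named 1 gene, 936 several and 9160 none, by the platform annotation. Values were taken as log2(signal + constant), the constant being the 20th percentile of each table (63.1 on A, 21.8 on B arrays). A probe set was kept where its signal exceeded the table median (283.3 and 89.2) on at least 3 of 70 arrays, and the brightest by rank stood for its gene, giving 14749 genes. Course means of days 4 to 7 were compared with limma 3.58.1 in R 4.3.3 (eBayes with trend, A and B separately, Benjamini-Hochberg over both, threshold 0.05). The change used the mean of days 4 to 7 minus that of days 0 and 1. No array was a copy of another (highest correlation 0.9665). Tested on simulated data, the late comparison of 14749 genes recovered 50% and 95% of genes changed by log2 1 and 2, with 5 false calls. The simulation changed 200 genes and drew noise independently for each gene and course. Shifts that many genes of a course share were not simulated, so the false calls do not give the error rate in these data. The text names the 4 markers, the 6 targets, the 12 largest rises and falls, and in each list up to 3 called and 2 other members, plus members named by role. X-linked genes, Gjb5 and genes called on days 0 and 1 or by their change were chosen after their values were seen. Members and lists were chosen with earlier results of these data known. No sample label names a Dppa4 course, so none was analysed here.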

Additional observations from a re-analysis of the deposited data

Results flagged for a closer look

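The change from days 0 and 1 to days 4 to 7 differed between the groups, by a limma test of that difference itself, for 27 genes. The values below are the core change minus the second-group change on the log2 scale. They were 2.88 for Sbsn, 2.82 for Lgals3, 2.67 for Nrk, 2.44 for Serpinb9g, 2.30 for Nxf7, 2.28 for 1600025M17Rik, 2.11 for Gpr50, 2.06 for Lonp2, 2.02 for Chdh and 1.80 for Dkkl1. Myof and Myl4 had 1.74 each, Lonrf3 1.62, Slco4a1 1.37, Sin3b 1.11, Bcor 1.05 and Basp1 1.04. In the other direction the values were -0.69 for Slc2a3, -1.11 for Dusp6, -1.17 for Gbp2, -1.18 for Hmgb3, -1.31 for Fam110b, -1.34 for Dpysl2, -1.43 for Ap3b2, -1.46 for Ephb3, -1.57 for Psmb8 and -1.69 for Rai1. For Lonp2 and Basp1 the groups differed on days 0 and 1 (-1.55 and -0.94) more than on days 4 to 7 (0.51 and 0.10). Without the Tbx3 course 1 of the 27 passed.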

How the results depend on the processing

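Over the alternatives run, Rhox6 and Sct passed in each, and all 666 late calls kept their direction in each. Where a course is left out that direction is fixed in advance, since the courses of these calls do not overlap. The late count was 418 without day 6 and 2141 with arrays as units and course as a random block, and 69 to 590 when a course was left out. The count for the change was 9 with a constant of 1, 45 with the table median, 11 without the filter, 14 with probe sets averaged per gene, 13 without the eBayes trend, 15 without day 5, 55 without day 7, and 1 to 28 when a course was left out. The early count was 64 after quantile normalization and 412 on day 0 alone. Leaving out a course gave -1.91 to -1.41 for Psmb8 and -1.08 to -0.80 for Cldn6. The difference of Esrrb, -0.03, was -0.36 to 0.14 when a course was left out and 0.01 without day 4 and without day 6. Of 34 other probe sets of named called genes 33 had the same direction and 21 passed. The cause of these shifts was not tested. With 3 courses a group, 1 transduction each, 50% of genes with a simulated difference of log2 1 were missed, and dim probe sets near the constants carry understated folds.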
